A study of Mus musculus with 6 samples.

Results

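Setbp1 encodes SET binding protein 1, and its locus is described here from maps of TERT, the catalytic subunit of telomerase, on the chromatin of cultured mouse neurons. The members are all regions whose deposited gene name was Setbp1, which were 11 of 41527 regions on chromosomes 1 to 19, X and Y. Of these, 10 were in the list of regions higher in vehicle, 1 was in the list common to both conditions and 0 were in the list of regions higher in BIBR1532. The gene was singled out for this difference in numbers, so the numbers are given as a description and no test was made on them.

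TERT was mapped by CUT&Tag, in which an antibody brings a transposase to the bound protein and the DNA beside it is cut and tagged. The cells were primary neurons of cortex and hippocampus from C57BL/6 embryos (E15-18). In one group, 3 samples received the vehicle dimethyl sulfoxide (0 µM inhibitor) for 24 h. In the other, 3 samples received BIBR1532, a compound that inhibits telomerase, at 2 µM for the same time. The vehicle samples are called untreated in one field of the labels. All samples carried the same TERT antibody, and no sample with a control antibody is among them. The labels do not say whether the samples of a group came from separate cultures.

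The libraries of each condition were combined before regions were called, so each region rests on 1 pooled measurement per condition and has no replicate error. Sample depth is unknown here. There were 6812 common, 16153 BIBR1532 and 18562 vehicle regions in all. BIBR1532 is taken as the first condition from the order of the names, so the direction is likely rather than stated outright. The lists hold positions on DNA and no expression, so they cannot check the labelled cell type. A common region of the promoter class was found for 1 of 8 neuron markers, 1 of 5 astrocyte markers, 0 of 5 microglia markers and 0 of 5 oligodendrocyte lineage markers, against 14.2% of all protein-coding genes.

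SETBP1 is a large nuclear protein with AT-hook motifs, which bind AT-rich DNA. It was named for its binding to the SET protein, an inhibitor of the phosphatase PP2A. SETBP1 also joins a chromatin complex with HCF1, the histone methyltransferase KMT2A and the proteins PHF8 and PHF6. Germline changes that stabilise the human protein cause Schinzel-Giedion syndrome, a severe developmental disorder of the nervous system, and loss of 1 copy of the gene is linked to delayed speech and intellectual disability.

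Setbp1 lies on chromosome 18 of mm10, from 78750378 to 79110444 in the RefSeq table of that build, a length of 360 kb. It is read on the minus strand, so its start site lies at the high-coordinate end. The deposited distances place the start site at 79109391, which is 1053 bp inside the 5' end of the RefSeq gene. Upstream of the gene, 909 kb without another protein-coding gene separate it from the small predicted gene Gm36718. Downstream, 153 kb separate it from the urea transporter gene Slc14a2.

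The only region shared by both conditions was at the start of the gene. This common region ran from 79110057 to 79110232 on chromosome 18, was 176 bp wide and was given the class promoter-TSS, which covers the sequence next to a start site of transcription. Its centre lay 753 bp upstream of the start site used in the deposited annotation, and 300 bp inside the RefSeq gene. Its score, the authors' own value and in this list a measure of the difference between the pools, was 0.0524. That score was low within the list, where 72.4% of common regions scored higher. The region was also narrow, since 22.1% of common regions were narrower. A common region of that class was found for 14.2% of all 21887 protein-coding genes, and for 53 (9.51%) of the 557 that were at least 300 kb long.

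**Figure D1:**
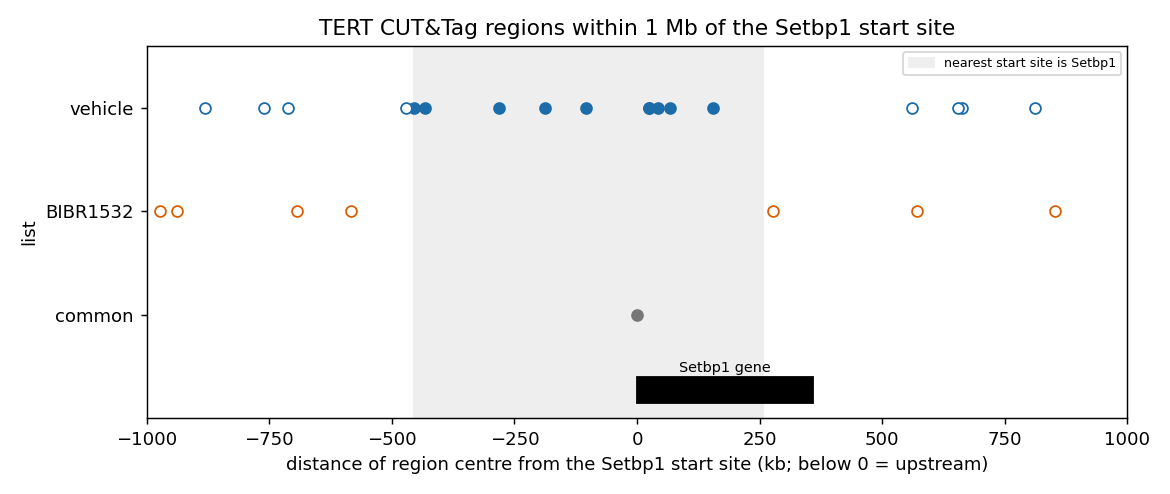
TERT CUT&Tag regions within 1 Mb of the Setbp1 start site, placed by the distance of the region centre from that site in kb (below 0 is upstream) and by list. Filled circles carry the gene name Setbp1, open circles carry another name, the black bar is the RefSeq gene, and the grey band marks positions whose nearest start site is that of Setbp1. All 10 vehicle members lie inside the band, and a BIBR1532 region lies inside the gene but outside the band.

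Inside the gene, 5 vehicle regions were found, and all of them were annotated to intron 2 of 5. They lay between 6.91% and 43.1% of the way from the 5' end of the gene, and 4 of the 5 were within 66.7 kb of the start site. The fifth, from 78955225 to 78955518, was 154 kb from the start site, 294 bp wide and had the highest score of the members, 7.35. That score was held by 789 vehicle regions, and 11.1% of the vehicle list scored higher.

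A close pair stood nearest the start site. The region from 79084375 to 79084537 was 163 bp wide with a score of 5.19, and the region from 79085428 to 79085680 was 253 bp wide with a score of 5.98. Their facing ends were 890 bp apart, and their centres were 24.9 and 23.8 kb from the start site. When regions within 1 kb of each other were merged, the 10 vehicle members became 9. The other intronic members were a 138 bp region from 79066350 to 79066487 (score 7.13), annotated to a TG simple repeat, and a 258 bp region from 79042542 to 79042799 (score 5.19).

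The other 5 vehicle members were intergenic and lay upstream of the gene. The nearest, from 79214172 to 79214606, was 435 bp wide with a score of 5.19, and its centre was 105 kb from the start site. The region from 79296243 to 79296514 was 272 bp wide with a score of 5.19, at 187 kb. The region from 79390150 to 79390631 was 482 bp wide with a score of 5.19, at 281 kb, and was annotated to an ERVK element, a class of endogenous retrovirus. These 3 were evenly scored because all sat at the most frequent score of the list.

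The farthest members were the widest. The region from 79541243 to 79542003 was 761 bp wide with a score of 6.66, at 432 kb, and was annotated to an ERVL element. The region from 79563521 to 79564908 was 1388 bp wide with a score of 6.24, at 455 kb, and was annotated to a TATTG simple repeat. Of the vehicle list, 93.6% was narrower than the first and 96.8% narrower than the second. The 5 intergenic members covered 3338 bp with a median width of 482 bp, and the 5 intronic members covered 1106 bp with a median of 253 bp. Over the whole vehicle list the medians were 261 bp for intergenic and 244 bp for intronic regions.

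**Figure D2:**
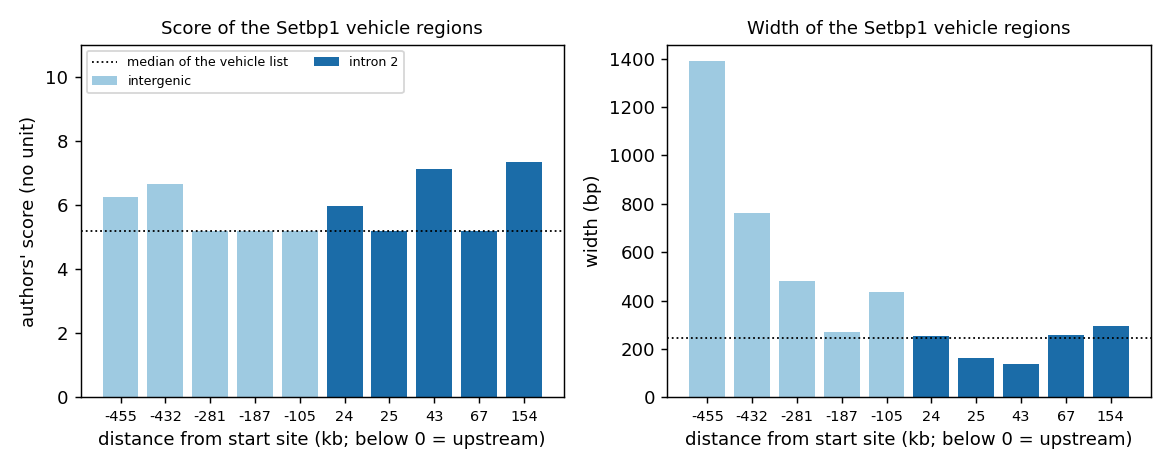
The authors' score (left, no unit) and the width in bp (right) of the 10 vehicle members, ordered by distance from the start site in kb (below 0 is upstream), with intergenic members in light and intronic members in dark blue. The dotted lines are the medians of the whole vehicle list, 5.19 for score and 244 bp for width: 5 members sit on the score line, and the 2 members farthest upstream are the widest, at 1388 and 761 bp.

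Of the 10 vehicle members, 5 sat at the most frequent score of 5.19, which 50.2% of the vehicle list shared. The other 5 were above it, as was 36.9% of the list, and 0 were below it, as was 12.9% of the list. Those 5 scored higher than 72.3% to 84.6% of the list. In all, 6 members had a score that other regions of the list repeated and 4 had a score of their own, against 41.6% of the list. The median score of the members was 5.59 and their range was 5.19 to 7.35, where the highest score of the list was 25.9.

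By class, 5 members were intronic and 5 intergenic, and none of the vehicle members was at a promoter. In the vehicle list as a whole 43.7% were intronic, 39.1% intergenic and 9.77% of the promoter class. Repeats were named for 4 of the 10 members, 2 in simple repeats and 2 in LTR elements of endogenous retroviruses. In the vehicle list 25.5% were annotated to a repeat, 2.25% to a simple repeat and 6.35% to an LTR element.

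The absence of BIBR1532 regions depended on how regions were given gene names. The deposited name is that of the nearest start site, and for Setbp1 this covers 711 kb, of which 454 kb is upstream of the gene. At the other end the last 103 kb of the gene (28.6% of its length) is nearer to the start site of Slc14a2. In that part lay a BIBR1532 region, from 78831938 to 78832163, annotated to intron 4 of 5 of Setbp1 and named Slc14a2. It was 226 bp wide and its score of 6.34 was the most frequent of the BIBR1532 list. Its centre was 277 kb from the start site of Setbp1 and 235 kb from that of Slc14a2, and 77.3% of the way along Setbp1 from the 5' end.

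Counted by position inside the gene, Setbp1 therefore held 5 vehicle regions, 1 BIBR1532 region and 1 common region. BIBR1532 regions were thus 0 of 10 condition-specific regions by name and 1 of 6 inside the gene. They were 46.5% of the condition-specific regions over all chromosomes and 44.0% on chromosome 18. Nothing is read from this contrast, because the gene was chosen for it and each condition is 1 pool. Naming by nearest start site moved regions in other long genes as well. Of the 4249 condition-specific regions inside exactly 1 protein-coding gene of at least 300 kb, 1663 (39.1%) were named for another gene.

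The members at the borders of the interval show how it was drawn. The vehicle region at 455 kb upstream had its centre 128 bp inside the border with Gm36718. The next region upstream, a vehicle region from 79580838 to 79580995 with a score of 5.22, lay 16.6 kb beyond that border and was named Gm36718. At the other border the BIBR1532 region in intron 4 was 21.1 kb outside, and the vehicle member nearest to that border was 102 kb inside. Within 500 kb of the start site and whatever the name, there were 11 vehicle regions, 1 BIBR1532 region and 1 common region.

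Vehicle regions were denser in the gene than along the chromosome, and BIBR1532 regions were sparser. The gene held 1.39 vehicle and 0.278 BIBR1532 regions per 100 kb. Chromosome 18 as a whole held 0.781 and 0.613, and all chromosomes together 0.700 and 0.609. The upstream interval as far as Gm36718 held 0.990 vehicle regions (9 regions) and 0.220 BIBR1532 regions (2 regions) per 100 kb. The downstream interval as far as Slc14a2 held none from any list, and Slc14a2 itself held 4 vehicle and 2 BIBR1532 regions. Over 1 Mb on each side of the gene the numbers were 9 vehicle and 4 BIBR1532 regions upstream and 8 and 4 downstream. These densities rest on few regions, and the gene was chosen for its numbers.

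**Figure D3:**
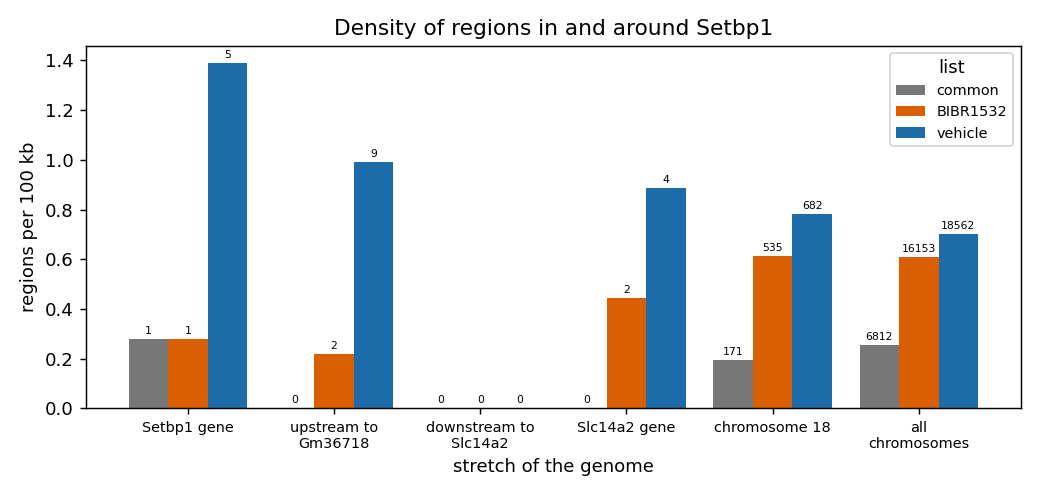
Regions per 100 kb in the common, BIBR1532 and vehicle lists for the Setbp1 gene, the intervals to its neighbouring protein-coding genes, the Slc14a2 gene, chromosome 18 and all chromosomes together. Numbers above the bars are the regions counted: the Setbp1 gene has 5 vehicle regions and 1 BIBR1532 region, and the downstream interval has 0 in every list.

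By deposited name, the neighbouring genes had fewer regions than Setbp1. Inside the gene, however, Slc14a2 held 4 vehicle and 2 BIBR1532 regions, against 5 and 1 in Setbp1. The other neighbours were 891 to 72811 bp long, against 360067 bp for Setbp1. The urea transporter gene Slc14a2 was named by 4 vehicle and 3 BIBR1532 regions, 1 of the latter being the region in intron 4 of Setbp1. Slc14a1, which encodes the other urea transporter, and the lectin gene Siglec15 were named by no region. On the upstream side Gm36718 was named by 4 vehicle and 2 BIBR1532 regions, none of them inside that gene. The cell polarity gene Pard6g and the homeobox gene Adnp2 were each named by 2 BIBR1532 and 0 vehicle regions, and Adnp2 also by 2 common regions.

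Genes of like length were set beside Setbp1. The 5 protein-coding genes nearest in length to Setbp1 that any region names were Ccdc178, the cohesin gene Stag1, the aminopeptidase gene Aopep, the microtubule-associated gene Mtus2 and the Rac activator gene Tiam1, at 358 to 361 kb. By position inside the gene, Tiam1 held 5 vehicle and 3 BIBR1532 regions, Mtus2 4 and 2, Stag1 2 and 3, Aopep 1 and 3, and Ccdc178 0 and 0. Setbp1, at 5 and 1, had as many vehicle regions as Tiam1.

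Among all 557 protein-coding genes of at least 300 kb, the median was 3 vehicle and 3 BIBR1532 regions inside the gene. At least 5 vehicle regions were found in 197 of them (35.4%), and at most 1 BIBR1532 region in 151 (27.1%). Both limits were met by 15 genes (2.69%), Setbp1 among them, and the mirror image, at least 5 BIBR1532 and at most 1 vehicle region, was met by 13 (2.33%). More vehicle than BIBR1532 regions were found in 248 genes and fewer in 188. The limits of 5 and 1 are the values of Setbp1 itself.

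**Figure D4:**
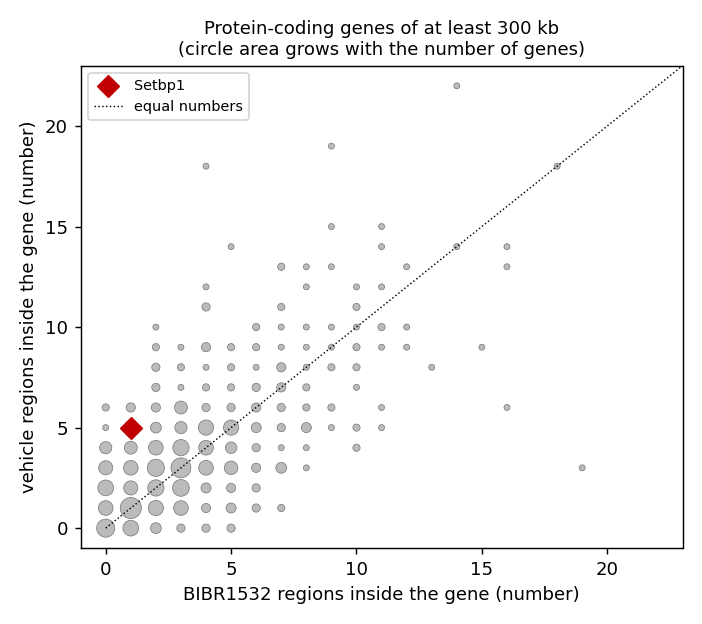
Number of vehicle regions against number of BIBR1532 regions inside each of 557 protein-coding genes of at least 300 kb, with circle area growing with the number of genes at a point and the dotted line at equal numbers. Setbp1 (red diamond) lies at 1 BIBR1532 and 5 vehicle regions, above the line and among other genes.

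The part of Setbp1 from its 5' end to the BIBR1532 region in intron 4 lay in a long stretch without BIBR1532 regions. Between the BIBR1532 region in intron 4 and the next one upstream of the gene, from 79691969 to 79692549 on chromosome 18 of mm10, the centres were 860 kb apart, and 11 vehicle regions lay between them. The 16132 stretches between consecutive BIBR1532 regions had a median length of 77.4 kb and a median of 1 vehicle region. At least 11 vehicle regions were found in 13 of them (0.0806%), that at Setbp1 among them, and the highest number was 13. The 11 at Setbp1 include the 10 vehicle members for which the gene was chosen, so this rank is not independent of that choice. In the mirror image, 6 of 18541 stretches between consecutive vehicle regions held at least 11 BIBR1532 regions, with a highest number of 15. Of 171 stretches between BIBR1532 regions whose length was within 10% of that at Setbp1, the median was 3 vehicle regions, and 3 stretches held 11 or more. The stretch at Setbp1 itself meets these limits. This measure was chosen after the values at Setbp1 were seen, and with 1 pool per condition it has no replicate check.

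By deposited name Setbp1 stood at the end of the range. Of 73 genes named by 10 condition-specific regions, Setbp1 alone (1.37%) had all 10 in the vehicle list, and 0 had all 10 in the BIBR1532 list. The median over the 73 was 5 vehicle regions, and the next highest number was 8, in 1 gene. Among 297 genes with 10 or more condition-specific regions, Setbp1 was the only one without a BIBR1532 region and 0 were without a vehicle region. These numbers are the ones for which the gene was chosen and carry no test.

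**Figure D5:**
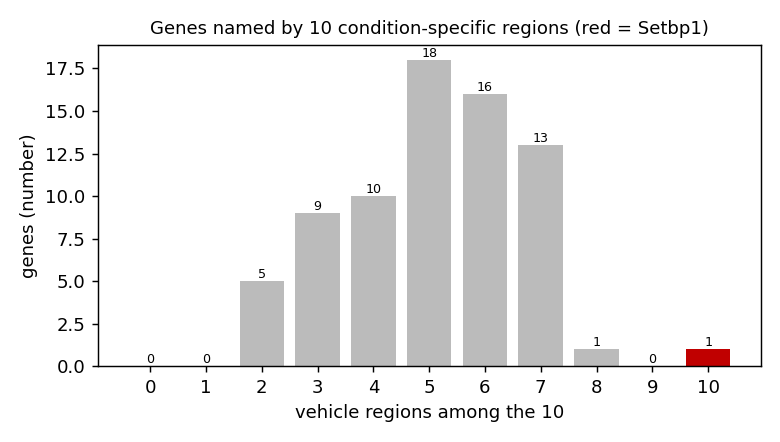
The 73 genes named by 10 condition-specific regions, by how many of the 10 were vehicle regions (horizontal axis) and the number of genes at each value (bars). Setbp1 is the single gene at 10, the next gene is at 8, and 18 genes are at 5.

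The genes whose numbers in the 3 lists were most like those of Setbp1 were chosen by the smallest sum of absolute differences. Elavl2, which encodes a neuronal RNA-binding protein, was closest, with a sum of 2: it was named by 8 vehicle, 0 BIBR1532 and 1 common region. At a sum of 3, shared by 7 genes, those nearest in length to Setbp1 were Brinp3 (8 vehicle, 1 BIBR1532 and 1 common), the protein kinase gene Prkd1 (8, 0 and 0), the nuclear factor I gene Nfia (10, 3 and 1) and the non-coding gene Gm20619 (8, 0 and 0). Counted inside the gene, Elavl2 held 5 vehicle and 0 BIBR1532 regions, Nfia 9 and 2, Gm20619 6 and 0, Prkd1 3 and 0, and Brinp3 1 and 1. The likeness is over 3 lists that come from 2 pools, and only in Nfia and Gm20619 did the vehicle number inside the gene exceed the 5 of Setbp1.

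Genes linked to SETBP1 were named equally often in both lists. In a list of 19 genes (partners of SETBP1, PP2A subunits, other AT-hook genes and transcription factor genes known from blood cells), 26 vehicle and 26 BIBR1532 regions were named. Vehicle regions outnumbered BIBR1532 regions in 8 genes, the reverse held in 6, numbers were equal in 3, and 2 (Hoxa9 and Hoxa10) were named by neither. Over all protein-coding genes, 24.1% had more vehicle and 19.8% more BIBR1532 regions, and BIBR1532 regions were 46.6% of those named. The median difference was 0, as over all protein-coding genes. At least 1 vehicle region was named for 14 of the 19, against 37.5% of all protein-coding genes, and at least 1 BIBR1532 region for 13, against 34.5%. These shares were not matched for gene length, which ran from 4.274 kb (Hoxa9) to 558.5 kb (Mecom) in the list.

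Among the direct partners, Set, which encodes the protein that gave SETBP1 its name, had 1 vehicle, 1 BIBR1532 and 2 common regions. Anp32a, another gene of the list, had 1 vehicle and 2 BIBR1532 regions. Kmt2a had 2 vehicle, 1 BIBR1532 and 1 common region, and Hcfc1 the same numbers. Phf6 had 1 vehicle and 2 common regions, and Phf8 had 1 vehicle and 1 common region, with 0 BIBR1532 regions for either. A common region of the promoter class, like that of Setbp1, was found for 5 of the 19: Set, Kmt2a, Hcfc1, Phf6 and the PP2A scaffold gene Ppp2r1a. That is 26.3% of the list, against 14.2% of all protein-coding genes. Ppp2ca and Phf8 each had a common region 131 and 156 bp from the start site, which was classed as 5' UTR and so not counted.

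For the PP2A subunits the numbers were small. Ppp2r1a had 1 vehicle and 0 BIBR1532 regions, the catalytic subunit gene Ppp2ca 1 and 1, and its paralog Ppp2cb 0 and 1. Among other genes of AT-hook proteins, Ahdc1 had 5 vehicle and 1 BIBR1532 regions, all 6 of them inside the gene, Hmga2 1 and 1, Hmga1 1 and 0, and the methyltransferase gene Ash1l 0 and 1. Counted inside the gene, Hmga2 held 4 vehicle and 1 BIBR1532 regions, Ash1l 1 and 2, and Hmga1 0 and 0. Ahdc1 had the same numbers of vehicle and BIBR1532 regions inside the gene as Setbp1, at 66.8 kb in place of 360 kb, but no common region. It differed in score, since 4 of its 5 vehicle regions scored between 1.25 and 1.76, below every vehicle member of Setbp1.

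Among the transcription factor genes of the list, the homeobox gene Meis1 had 1 vehicle and 6 BIBR1532 regions. Of these, 2 BIBR1532 regions and 0 vehicle regions lay inside the gene. The transcription factor genes Runx1 and Mecom had 3 vehicle and 4 BIBR1532 regions and 5 and 4, and Myb had 0 and 2. Over the whole list, Myb, Mecom and Set each had a BIBR1532 region of the promoter class. Ppp2ca, Ppp2r1a and Phf6 each had a vehicle region of that class. These were among the 26 regions of each list named for the 19 genes. The class made up 10.6% of all BIBR1532 regions and 9.77% of all vehicle regions. Hcfc1 had a BIBR1532 region 178 bp from the start site, classed as 5' UTR. Ahdc1 had a vehicle region at 130 bp, classed as intron, so neither was counted.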

How the data were processed

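Per the submitters' processing notes, CASAVA 1.8, Bowtie2, Picard and MACS2 2.1.2 were used with the mm10 build, with no role given for each. Per the file headers, the lists came from a bdgdiff step, which compares 2 pools and sorts regions into those higher in either and those common to both, on the combined libraries of each condition, with c1.0 in the list names. Per the file headers, annotatePeaks.pl then gave each region a class, a distance and the gene of the nearest start site on mm10. Each region carries a deposited score, a value of the authors. The scaling of the pools is not stated in the labels or headers. The score was used only to rank and describe regions within a list.

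The BIBR1532 and vehicle lists were decoded from a 7-bit text encoding. Only chromosomes 1 to 19, X and Y were kept, and the distances, classes and names are those deposited. Of 15356 gene IDs named, 15345 were found in the mm10 RefSeq table. Gene positions are from that table, and a region was placed inside a gene by its centre. Chromosome densities use the span from the first to the last region.

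The members and lists were chosen with earlier results of these data known. Genes named are Setbp1, 3 protein-coding neighbours on each side, the 5 genes nearest in region numbers and in length, and the members of the list of partners and targets; of cell markers only counts are given. No test was made, since each condition is 1 pool, and a planned binomial interval of the BIBR1532 share was left out because the gene was chosen for that share. The alternatives are score minimums of 2 and 3, removal of the most frequent score, a width of at least 500 bp, merging within 1 kb, and other rules of gene assignment. The counting of regions between positions was tested on simulated data. Counts were made with pandas 2.3.3 and numpy 2.4.6 under Python 3.11.15, and plots with matplotlib 3.10.9.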

Additional observations from a re-analysis of the deposited data

How the results depend on the processing

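No paired analysis was possible because the libraries of each condition were combined in the lists, and for the same reason no library could be left out. The numbers of Setbp1 regions (10 vehicle, 0 BIBR1532, 1 common) depended on the setting. The BIBR1532 number changed only when regions were counted by position whatever their name. Counted by position inside the gene, or in the gene with 50 kb on each side, there were 5 vehicle regions and 1 BIBR1532 region. With named regions within 10 kb of the start site only, 0 vehicle regions were left. Without the most frequent score of each list 5 vehicle regions were left, and at a width of at least 500 bp 2 vehicle and 0 common regions. In the whole lists, 15.2% of vehicle and 14.9% of common regions were that wide. At score minimums of 2 and 3 the common number was 0, because scores of the common list lie below 1, and the vehicle number stayed at 10. Within 500 kb of the start site whatever the name, a setting added after seeing the data, there was 1 BIBR1532 region. Vehicle regions outnumbered BIBR1532 regions in every setting except within 10 kb of the start site, where both were 0. Settings that filter or merge the named regions start from 0 BIBR1532 regions, so the reverse could not occur in them. The settings by position in or around the gene mostly count again the vehicle members for which it was chosen.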

Other observations

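By deposited name, Elavl2, Prkd1, Vldlr and Gm20619 each had 8 vehicle and 0 BIBR1532 regions, the highest number after Setbp1 among genes without a BIBR1532 region. In the other direction the highest was Nol4l, with 7 BIBR1532 and 0 vehicle regions. Vldlr and Nol4l were named after their values were seen.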
